A study of Mus musculus with 10 samples.

Results

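The leukocyte integrins examined here are the products of 9 genes, Itgam, Itgax, Itgal, Itgb2, Itga4, Itga5, Itga6, Itgb1 and Itgb7. They were chosen by name, as every array probe whose RefSeq accession belongs to 1 of these genes. This gave 14 of the 55681 probes on the array and 9 of its 20660 genes with a RefSeq symbol. All 9 genes passed the filter on dim signals, which kept 14213 genes well above background on at least 2 of 10 arrays.

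The arrays were 1-colour Agilent arrays of EML-C1 cells, an established line of mouse blood progenitors with erythroid and myeloid potential. EPO cultures received erythropoietin at 10 ng/ml. IL-3/GM-CSF cultures received IL-3 at 10 ng/ml and all-trans retinoic acid at 10 µM from day 0, and GM-CSF at 10 ng/ml only after day 3, so their day 3 cells had seen no GM-CSF. Combined cultures received both sets of factors on the same schedule. Each treatment gave 3 arrays: cells sorted at day 3 as Sca1-low, cells sorted at day 3 as Sca1-high, and day 6 cells, which the labels assign to no Sca1 fraction. Untreated cells at day 0 gave 1 array. Per the labels, all cells were grown in horse serum with conditioned medium, and RNA came from sorted subpopulations of 1 cell line. Each of the 10 conditions had 1 array here. A second set of arrays named in the series design was not analysed here.

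Integrins are adhesion receptors built from an alpha and a beta subunit. On white blood cells the beta 2 subunit, encoded by Itgb2, pairs with the alpha subunits encoded by Itgal, Itgam and Itgax, and these receptors bind ICAM proteins, fibrinogen and complement fragments. The alpha 4 subunit pairs with beta 1 or beta 7 and holds progenitors and lymphocytes to VCAM1 and MAdCAM1, while alpha 5 and alpha 6 with beta 1 bind fibronectin and laminin. The arrays report RNA levels and not surface protein, and fewer cells of a type and less RNA per cell cannot be told apart in bulk RNA.

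RefSeq promoter windows of GRCm38.p6, from 250 bases before to 50 bases after the gene start, were at hand for 6 of the 9 genes: Itgam, Itgax, Itga4, Itga5, Itgb1 and Itgb7. Itgal, Itgb2 and Itga6 were not in that table. The 4 windows below belong to Itgam and Itgax, the myeloid alpha subunit genes that lie on the same strand of chromosome 7, and to Itgb7 and Itgb1, the alternative beta partners of alpha 4, which differed between the day 3 fractions in opposite directions by their mean values. They run 5′ to 3′ on the strand of the gene, and capitals mark matches to the motifs searched.
Itgam, chr7:128062390-128062689, plus strand: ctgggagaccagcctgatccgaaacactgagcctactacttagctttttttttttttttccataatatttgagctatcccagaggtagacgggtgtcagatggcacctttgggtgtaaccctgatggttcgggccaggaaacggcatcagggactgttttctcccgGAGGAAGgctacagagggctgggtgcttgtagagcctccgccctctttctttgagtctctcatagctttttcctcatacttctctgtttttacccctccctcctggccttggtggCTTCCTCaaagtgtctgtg
Itgax, chr7:128129300-128129599, plus strand: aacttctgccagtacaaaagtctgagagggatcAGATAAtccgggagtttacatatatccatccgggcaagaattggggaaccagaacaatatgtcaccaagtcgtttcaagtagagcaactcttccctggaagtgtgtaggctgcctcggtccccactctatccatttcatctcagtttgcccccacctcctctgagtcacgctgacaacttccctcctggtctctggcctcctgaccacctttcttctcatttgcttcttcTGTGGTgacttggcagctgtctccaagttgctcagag
Itgb7, chr15:102231886-102232185, minus strand: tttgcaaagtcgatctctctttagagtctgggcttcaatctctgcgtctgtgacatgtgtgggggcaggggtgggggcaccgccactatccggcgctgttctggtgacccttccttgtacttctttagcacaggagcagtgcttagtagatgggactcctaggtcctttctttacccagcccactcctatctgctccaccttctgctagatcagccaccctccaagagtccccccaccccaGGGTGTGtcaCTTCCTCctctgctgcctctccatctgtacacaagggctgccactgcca
Itgb1, chr8:128685404-128685703, plus strand: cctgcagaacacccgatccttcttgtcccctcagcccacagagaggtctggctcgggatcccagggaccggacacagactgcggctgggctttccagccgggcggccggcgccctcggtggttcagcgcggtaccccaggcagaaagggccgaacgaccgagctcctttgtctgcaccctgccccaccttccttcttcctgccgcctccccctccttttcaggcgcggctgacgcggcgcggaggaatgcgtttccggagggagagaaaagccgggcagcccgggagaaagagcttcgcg

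Both strands of each window were searched for 5 motifs. A motif known to be bound by the myeloid factor PU.1 was spelled GAGGAAG. For the erythroid GATA factors the letters searched were AGATAA. For KLF factors, which also act in red cells, they were CACACCC. The granulocyte factors of the C/EBP family were searched as TTGCGCAA. For the RUNX factors of blood progenitors they were TGTGGT. Positions count from the gene start to the left end of the match. The Itgam window held the PU.1 type motif at 2 places, at -84 on the printed strand and at 32 on the opposite strand. The Itgax window held the GATA type motif at -217 and the RUNX type motif at 14. The Itgb7 window held the KLF type motif at -9 and the PU.1 type motif at 2, both on the opposite strand. In the Itga4 window the KLF type motif matched at 2 places, of which 1 overlapped a match of the RUNX type. The Itga5 and Itgb1 windows held 0 matches to these letters. Of all 32851 windows of that length, 13.6% held the PU.1 type, 11.2% the GATA type, 7.95% the KLF type, 0.183% the C/EBP type and 16.8% the RUNX type. The matches describe these letters only.

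Levels are the log2 processed signal relative to the 75th percentile of the same array, so that 0 is a signal equal to that percentile, and differences are on the same log2 scale where no fold is named. Levels of a gene were compared across arrays. Levels of different genes were set side by side only in sums over marker lists and for the brightest Itgam probe and its closest followers. The 75th percentile lay between 309 and 736 intensity units, lowest on EPO Sca1-low and highest on the untreated array. Repeat spots of 1 probe had a median SD between 0.083 and 0.135 on an array, which covers technical spread only. The arrays sat on 3 slides. EPO day 6, combined day 6 and untreated cells shared a slide, the day 3 fractions of EPO and of IL-3/GM-CSF shared the next, and the day 3 fractions of the combined treatment shared the last with IL-3/GM-CSF day 6. Ly6a, the gene of the sorting marker Sca1, was at -4.25 (not well above background), -3.43 and -2.80 in the Sca1-low fractions of EPO, IL-3/GM-CSF and combined cultures, against 4.76, 2.64 and 1.89 in their Sca1-high fractions. The scaling moved the centre of the differences: over all genes the median of EPO Sca1-low minus untreated cells, where the shift was largest, was 0.177, but -0.041 after quantile normalization.

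**Figure D1:**
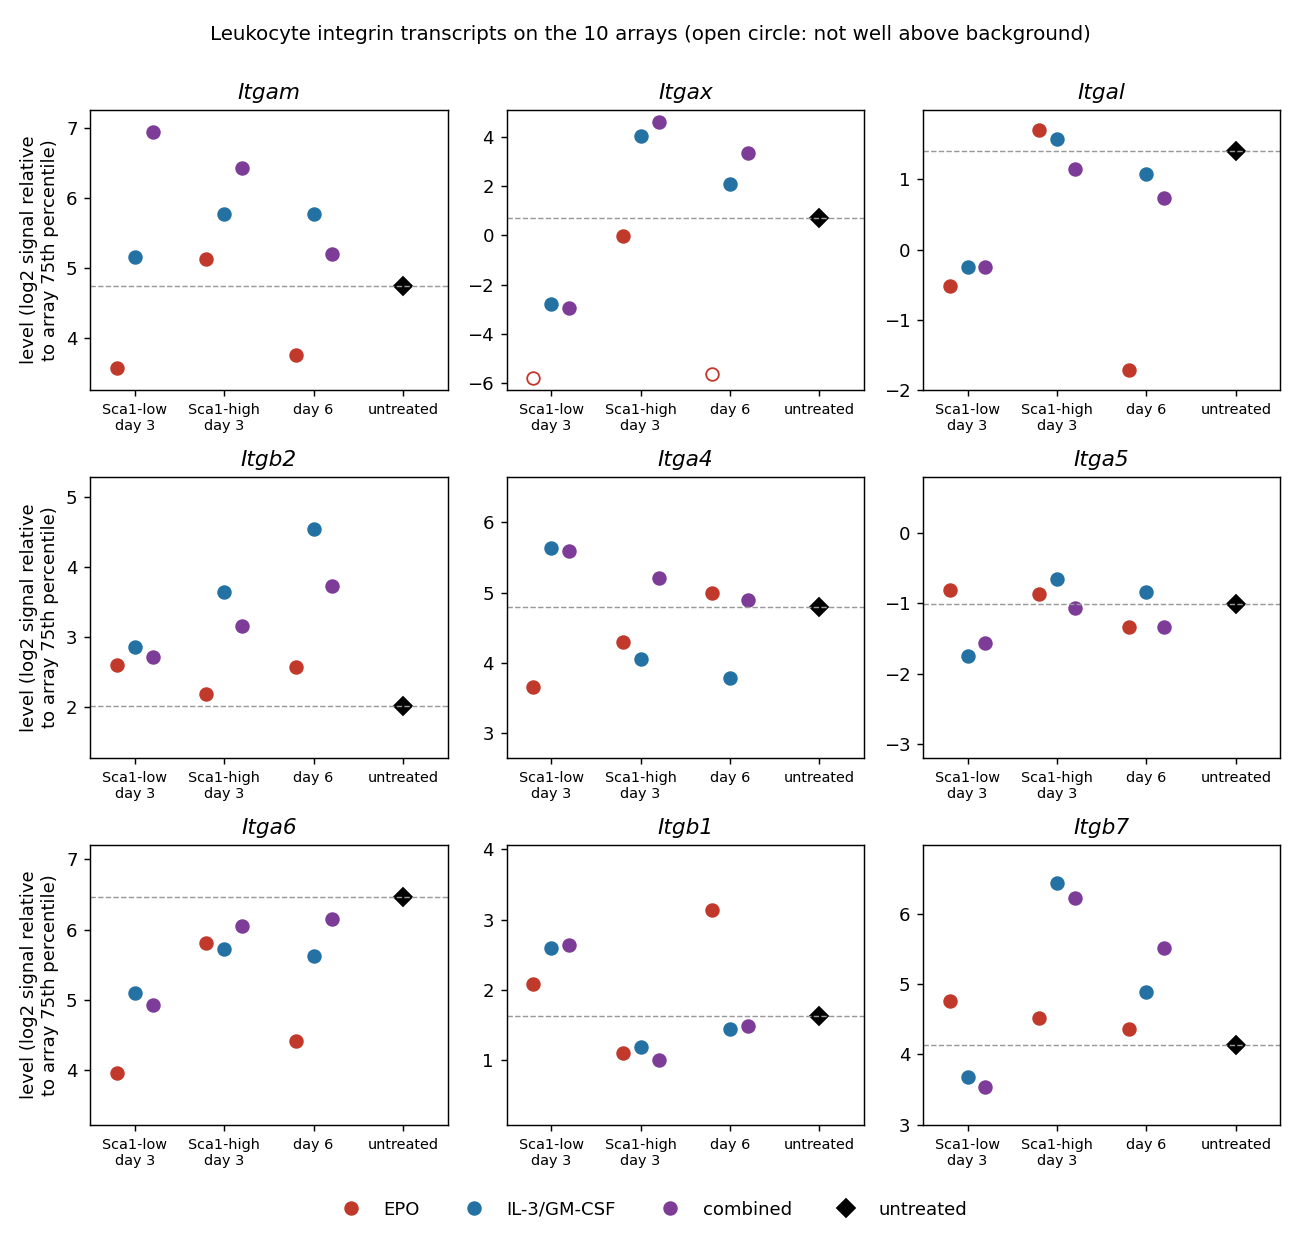
Level of each integrin gene (log2 signal relative to the 75th percentile of the array) on the 10 arrays, with the day 3 fractions (Sca1-low, then Sca1-high), day 6 cells and untreated cells along the horizontal axis and colour for treatment. Each point is 1 array, the dashed line repeats the untreated level, and the open circles, not well above background, are Itgax at -5.79 (EPO Sca1-low) and at -5.65 (EPO day 6).

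Itgax encodes the alpha X subunit, CD11c, known from dendritic cells, monocytes and macrophages. It had the widest range of the 9 genes. The level was -5.79, -0.02 and -5.65 with EPO (Sca1-low, Sca1-high, day 6), -2.81, 4.06 and 2.10 with IL-3/GM-CSF and -2.97, 4.60 and 3.36 in combined cultures, against 0.71 in untreated cells. On 2 arrays, EPO Sca1-low and EPO day 6, the value was not well above background. With values not well above background raised to the lowest level well above background on their array, the floor, the lowest and highest arrays were at least 8.34 apart, and 99.5% of the 14213 genes treated the same way had a smaller range. At day 6 Itgax was at least 18.1-fold lower with EPO than in untreated cells, while it was 2.62-fold higher with IL-3/GM-CSF and 6.28-fold higher in combined cultures. The combined day 6 cells were at least 114-fold higher than the EPO day 6 cells. These bounds hold for the processed signal only: after normexp correction with quantile normalization the Itgax difference was -3.79 for EPO day 6 minus untreated and 6.36 for combined day 6 minus EPO day 6, against -4.18 and 6.83 at the floor. Its level in Sca1-high cells of IL-3/GM-CSF and of the combined treatment was higher than at day 6 of the same treatment, by 3.89-fold and 2.37-fold. These differences each compare 2 arrays and have no replicate check.

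Itgam encodes the alpha M subunit, CD11b, the partner of beta 2 in the Mac-1 receptor of granulocytes and macrophages. Its 3 probes disagreed. The brightest, A_55_P1977934, lay at 3.58, 5.13 and 3.76 with EPO (Sca1-low, Sca1-high, day 6), at 5.16, 5.78 and 5.77 with IL-3/GM-CSF and at 6.94, 6.43 and 5.20 in combined cultures, against 4.75 in untreated cells. By this probe the combined fractions of day 3 were the highest arrays, and EPO Sca1-low and EPO day 6 cells were the only arrays below untreated cells. The probe A_55_P1977929, which carries the same RefSeq accession, lay at -2.89, -2.93 and -3.81 with EPO, at -1.62, 0.45 and 2.60 with IL-3/GM-CSF and at -3.69, 0.26 and 1.75 in combined cultures, against -2.98 in untreated cells. By that probe day 6 cells were 48.0-fold above untreated cells with IL-3/GM-CSF and 26.6-fold above them in combined cultures, and the EPO day 6 value was not well above background. The probe A_55_P1977926, of another accession of the gene, lay at -2.56, -2.28 and -2.56 with EPO, at -2.57, -2.11 and -0.79 with IL-3/GM-CSF and at -2.00, -2.44 and -1.34 in combined cultures, against -2.31 in untreated cells.

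Across the 10 arrays, the brightest Itgam probe correlated with the other probes at r = 0.358 and r = 0.359, and those correlated with each other at r = 0.745. The arrays share treatments and slides, so these are descriptions. Both dimmer probes put IL-3/GM-CSF day 6 highest and combined day 6 next, and the brightest did not. The probes of Itgal (r = 0.984), Itgb1 (r = 0.976) and Itga4 (r = 0.963) moved together. Below, an Itgam value without a named probe is that of A_55_P1977934, the brightest, and the other probes can differ from it.

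**Figure D2:**
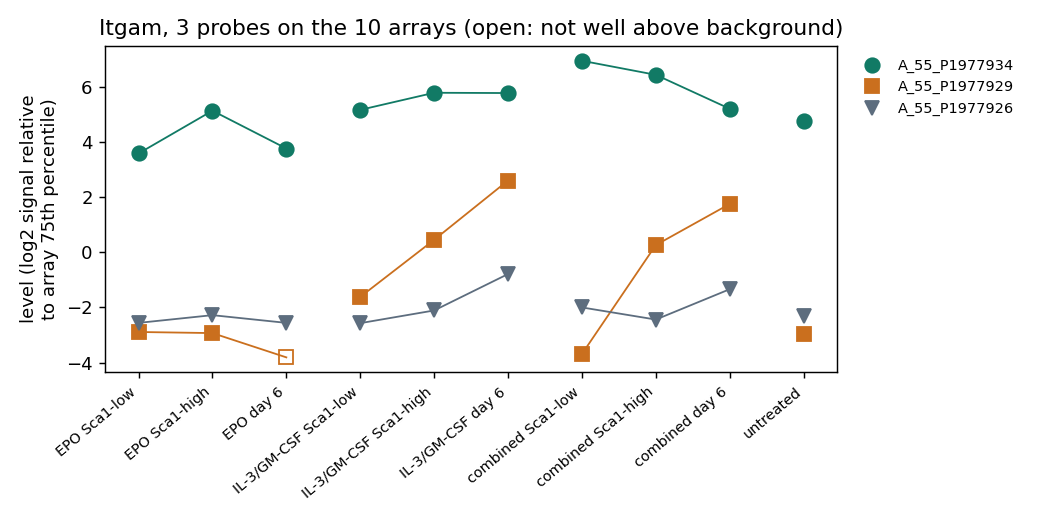
Level of the 3 Itgam probes (log2 signal relative to the 75th percentile of the array) on the 10 arrays, with lines joining the arrays of a treatment. A_55_P1977929 spans -3.81 to 2.60 and is highest in IL-3/GM-CSF day 6 cells, whereas A_55_P1977934 is highest in combined Sca1-low cells at 6.94, and the open square is not well above background.

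Itgal encodes the alpha L subunit, CD11a, which forms LFA-1 with beta 2 and binds ICAM proteins. The level was -0.52, 1.70 and -1.71 with EPO (Sca1-low, Sca1-high, day 6), -0.24, 1.58 and 1.08 with IL-3/GM-CSF and -0.25, 1.15 and 0.74 in combined cultures, against 1.41 in untreated cells. The 3 Sca1-low fractions and EPO day 6 were the low arrays, and the other arrays lay between 0.74 and 1.70. EPO day 6 cells were 8.68-fold lower than untreated cells.

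Itgb2 encodes the beta 2 subunit, CD18, without which none of the 3 alpha subunits above reaches the cell surface. The level was 2.61, 2.19 and 2.58 with EPO (Sca1-low, Sca1-high, day 6), 2.86, 3.64 and 4.54 with IL-3/GM-CSF and 2.72, 3.16 and 3.73 in combined cultures, against 2.02 in untreated cells. Every treated array was above the untreated one, by as little as 1.12-fold in EPO Sca1-high cells. Day 6 cells were 5.74-fold above untreated cells with IL-3/GM-CSF and 3.28-fold above them in combined cultures, against 1.48-fold with EPO. The arrays of IL-3/GM-CSF and of the combined treatment did not overlap those of EPO, and the level of all 14213 genes did not overlap between EPO and IL-3/GM-CSF for 14.0%, and between the combined treatment and EPO for 18.1%.

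The alpha 4 subunit gene, Itga4 (CD49d), was at 3.66, 4.30 and 4.99 with EPO (Sca1-low, Sca1-high, day 6), at 5.63, 4.05 and 3.79 with IL-3/GM-CSF and at 5.59, 5.21 and 4.90 in combined cultures, against 4.80 in untreated cells. The order of the populations differed between treatments: Sca1-low cells were lowest with EPO and highest with IL-3/GM-CSF and in combined cultures. No array was more than 2.20-fold from untreated cells. Itga5, which encodes the alpha 5 subunit of the fibronectin receptor, was at -0.81, -0.86 and -1.33 with EPO, at -1.75, -0.65 and -0.84 with IL-3/GM-CSF and at -1.56, -1.06 and -1.33 in combined cultures, against -1.01 in untreated cells. Its range of 1.10 was the narrowest of the 9 genes, and 26.9% of all genes had a smaller one.

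Itga6 encodes the alpha 6 subunit, CD49f, a laminin receptor subunit of many stem and progenitor cells. The level was 3.96, 5.81 and 4.41 with EPO (Sca1-low, Sca1-high, day 6), 5.10, 5.72 and 5.62 with IL-3/GM-CSF and 4.93, 6.05 and 6.15 in combined cultures, against 6.46 in untreated cells. The untreated array was the highest of the 10, and EPO Sca1-low and EPO day 6 cells were the lowest, 5.64-fold and 4.14-fold below it.

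Itgb1 encodes the beta 1 subunit, CD29, the common partner of alpha 4, alpha 5 and alpha 6. The level was 2.09, 1.10 and 3.14 with EPO (Sca1-low, Sca1-high, day 6), 2.60, 1.19 and 1.45 with IL-3/GM-CSF and 2.64, 1.00 and 1.48 in combined cultures, against 1.63 in untreated cells. EPO day 6 was the highest array, 2.85-fold above untreated cells, and the Sca1-high fractions were the 3 lowest.

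Itgb7 encodes the beta 7 subunit, which pairs with alpha 4 in the receptor for MAdCAM1. The level was 4.76, 4.52 and 4.36 with EPO (Sca1-low, Sca1-high, day 6), 3.68, 6.44 and 4.89 with IL-3/GM-CSF and 3.54, 6.23 and 5.52 in combined cultures, against 4.13 in untreated cells. The Sca1-high fractions of IL-3/GM-CSF and of the combined treatment were highest, 4.96-fold and 4.28-fold above untreated cells, and the EPO arrays lay between 4.36 and 4.76.

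The day 3 fractions were compared to see which integrin RNAs differed with the Sca1 level. In Sca1-low cells Itgax and Itgal were lower and Itgb1 was higher, each under all 3 treatments. These were the 3 of 9 genes called by limma (adjusted p under 0.05) in a fit of the 6 day 3 arrays with treatment as a block. Of all 14213 genes, 11.1% were called in that fit, 4.09% higher and 6.99% lower. This fit was made the main one with it already known that a model of all 10 arrays calls 0 genes in this comparison. With that model the adjusted p was 0.111 for Itgax, 0.156 for Itgal and 0.158 for Itgb1. The treatments stand in for replicates here, with 2 residual degrees of freedom, so p measures how even a difference was across treatments.

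Itgax differed by -6.87 with IL-3/GM-CSF and by -7.57 in combined cultures. The Sca1-low value with EPO was not well above background, so there the difference was only bounded, a fall of at least 13.2-fold, or -3.72 at the floor (-3.17 after normexp correction with quantile normalization). In the limma fit Itgax differed by -6.05 at the floor (SE 0.74, limma adjusted p = 0.00787), and by -6.74 with that value as measured (SE 0.39, limma adjusted p = 0.00434). Itgal differed by -1.81 (SE 0.25, limma adjusted p = 0.0194), and by -2.22 with EPO, -1.81 with IL-3/GM-CSF and -1.40 in combined cultures. Itgb1 differed by 1.35 (SE 0.23, limma adjusted p = 0.0323), and by 0.99 with EPO, 1.42 with IL-3/GM-CSF and 1.65 in combined cultures. Without the IL-3/GM-CSF pair none of the 3 was called (limma adjusted p = 0.0571, 0.116 and 0.146), and without the combined pair only Itgax was.

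Itga6 was lower in every Sca1-low fraction, with differences of -1.85, -0.62 and -1.13 with EPO, with IL-3/GM-CSF and in combined cultures, and its mean difference of -1.20 (SE 0.30) did not pass (limma adjusted p = 0.0772). It passed after normexp correction with quantile normalization (limma adjusted p = 0.0274). Itgb7 differed by 0.24 with EPO, -2.77 with IL-3/GM-CSF and -2.68 in combined cultures, a mean of -1.74 (SE 0.67, limma adjusted p = 0.166). Without the EPO pair the Itgb7 difference was -2.72 (limma adjusted p = 0.00359). For Itgam (-0.55, by its brightest probe), Itga5 (-0.52), Itga4 (0.44) and Itgb2 (-0.27) the limma adjusted p lay between 0.292 and 0.58. Each of them had both signs among the treatments. For Itgam the brightest probe gave -1.55, -0.62 and 0.51 with EPO, with IL-3/GM-CSF and in combined cultures. In that order A_55_P1977929 gave 0.04, -2.07 and -3.95, and A_55_P1977926 gave -0.28, -0.46 and 0.44. The Sca1-low and Sca1-high levels did not overlap for Itgax, Itgal, Itga6 and Itgb1, and for 35.8% of all genes. The median difference was 0.17 over all genes.

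Taken pair by pair, with a difference counted if it was at least 2-fold and the higher array well above background, 0 integrin genes were higher and 4 lower in Sca1-low cells with EPO, against 12.3% and 14.7% of all genes. With IL-3/GM-CSF 2 were higher, Itga4 and Itgb1, and 4 lower, against 9.27% and 13.9%. In combined cultures 1 was higher, Itgb1, and 4 lower, against 11.8% and 12.0%. The lower genes were Itgax and Itgal each time. The others were Itga6 and, by its brightest probe only, Itgam for EPO (0.04 by A_55_P1977929). They were Itga5 and Itgb7 for IL-3/GM-CSF, and Itga6 and Itgb7 for combined cultures. By A_55_P1977929 Itgam was 4.21-fold lower in Sca1-low cells with IL-3/GM-CSF and 15.5-fold lower in combined cultures. The brightest probe (-0.62 and 0.51) and A_55_P1977926 (-0.46 and 0.44) did not reach 2-fold there.

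Day 6 cells were also set beside the Sca1-high cells of day 3. With EPO, Itgb1 was 4.09-fold higher at day 6 (11.5% of all genes were at least 2-fold higher), and Itgax, Itgal, Itgam and Itga6 were lower (16.0%), Itgal by 10.6-fold and Itgax by at least 10.9-fold. With IL-3/GM-CSF 0 were higher (5.71%) and 2 lower (8.08%), Itgax and Itgb7. In combined cultures 0 were higher (6.25%) and 2 lower (6.17%), Itgax and, by its brightest probe, Itgam. These counts take Itgam by its brightest probe. By A_55_P1977929 Itgam was higher at day 6, 4.43-fold with IL-3/GM-CSF and 2.81-fold in combined cultures. A_55_P1977926 was higher by 2.49-fold and 2.14-fold in the same order. With EPO these probes gave -0.88, where the day 6 value was not well above background, and -0.27.

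**Figure D3:**
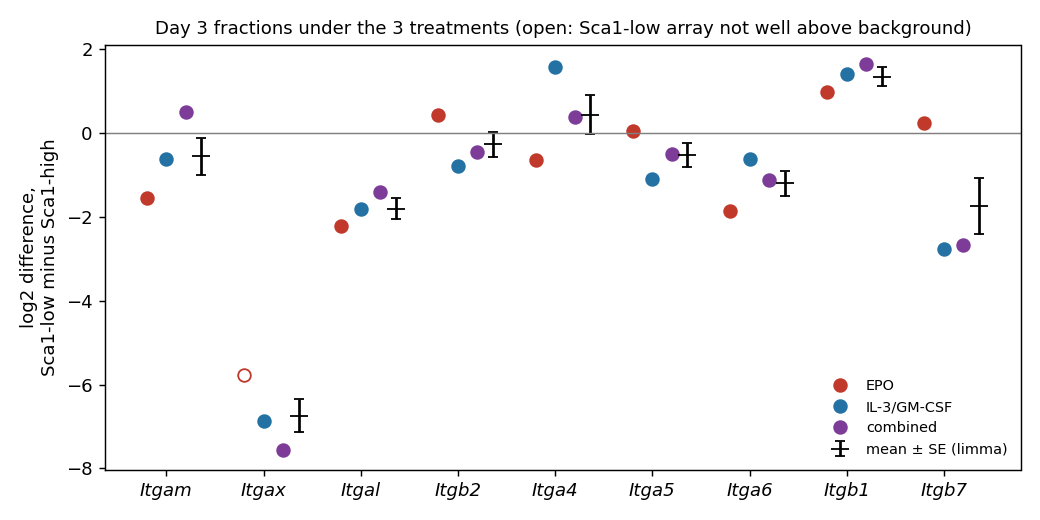
Sca1-low minus Sca1-high difference at day 3 (log2) for the 9 genes, with 1 coloured point per treatment and the limma mean ± SE of the 3 in black. Itgax lies between -7.57 and -5.77, Itgal between -2.22 and -1.40 and Itgb1 between 0.99 and 1.65, and the open point has a Sca1-low value not well above background, which the black mean takes as measured.

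Markers of blood cell types moved between the same fractions. The summed signal of 9 erythroid markers, on the same log2 scale, was 8.76 to 9.84 in Sca1-low cells, against 5.33 to 6.33 in Sca1-high cells, with all 9 well above background on these 6 arrays. That of 10 neutrophil markers was 3.35 to 4.03 in Sca1-low cells, against 7.57 to 8.63 in Sca1-high cells, but Mpo carried most of the Sca1-high sums. With EPO Mpo was at 1.71 in Sca1-low cells, against 8.40 in Sca1-high cells, while 8 of the 10 markers were higher in Sca1-low cells. With IL-3/GM-CSF and in combined cultures 9 of 10 were lower in Sca1-low cells. S100a8 did not stand well above background in EPO or combined Sca1-low cells, nor in EPO Sca1-high cells. For 7 monocyte and macrophage markers the sum was 1.84 to 3.41 in Sca1-low cells, against 3.18 to 5.22 in Sca1-high cells. With EPO it was higher in Sca1-low cells, 3.41 against 3.18, where Csf1r was at 3.38 against 2.82. Of the 7 markers 2, 0 and 0 were higher in Sca1-low cells of EPO, IL-3/GM-CSF and combined cultures. In those Sca1-low cells 1, 5 and 3 of them were well above background. Cd14 was not well above background on any Sca1-low array, nor in EPO Sca1-high cells. For 7 mast cell and basophil markers the sum was 3.11 to 3.53 in Sca1-low cells, against 7.24 to 8.75 in Sca1-high cells. Most of it in Sca1-high cells was Cpa3, at 8.36, 7.11 and 7.91 with EPO, with IL-3/GM-CSF and in combined cultures. Of these 7 markers 2, 2 and 1 were higher in Sca1-low cells of the same treatments. For 5 dendritic cell markers the sum was 7.54 to 8.38 in Sca1-low cells, against 7.19 to 7.40 in Sca1-high cells, nearly all of it Siglech. Of these 5 markers 3, 2 and 4 were higher in Sca1-low cells of EPO, IL-3/GM-CSF and combined cultures, and Cd74 was lower in each (-3.54, -4.22 and -3.97, against -0.76, -0.83 and -2.28 in Sca1-high cells), with the EPO and IL-3/GM-CSF Sca1-low values not well above background. The progenitor gene Cd34 was at -2.64, 0.44 and 0.00 in the Sca1-low cells, against 6.59, 6.64 and 5.61 in the Sca1-high cells. The mean level of 7 progenitor markers was 0.61, 1.75 and 1.70, against 4.52, 3.68 and 3.58. These 7 include Cd34 and also Ly6a, the gene of the sorting marker, so part of this difference was set by the sort. Of the 7 markers 0, 4 and 2 were higher in Sca1-low cells of EPO, IL-3/GM-CSF and combined cultures. Of 4 eosinophil markers 0 were well above background in any Sca1-low cells, against 3, 4 and 2 in Sca1-high cells. The part of such cells in the integrin differences was not tested.

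Treatments were compared over their 3 populations to ask which integrins went with an erythroid or a myeloid factor. The populations stand in for replicates here, with 4 residual degrees of freedom. So SE and p measure how even a difference was across populations, not the spread of repeated cultures. Itgam, Itgax and Itgb2 were lower with EPO than with IL-3/GM-CSF on average, but limma called 0 of the 9 integrin genes in any comparison of treatments. Among all genes, 1 was called for EPO minus IL-3/GM-CSF (0.00704% of all), 0 for the combined treatment minus IL-3/GM-CSF and 1 for the combined treatment minus EPO (0.00704%). At an unadjusted p under 0.05 the counts of all genes were 2682, 259 and 3354. Values are given for these 3 genes, which were picked after their values were seen. Of the 3 EPO arrays 2 did not read Itgax well above background, so its differences are bounds in size and are given at the floor. For EPO minus IL-3/GM-CSF the mean difference was -3.52 for Itgax (SE 1.02, limma adjusted p = 0.201), -1.42 for Itgam (SE 0.51, limma adjusted p = 0.232) and -1.22 for Itgb2 (SE 0.34, limma adjusted p = 0.21). For the combined treatment minus EPO it was 4.07 for Itgax (SE 1.02, limma adjusted p = 0.11), 2.04 for Itgam (SE 0.51, limma adjusted p = 0.15) and 0.74 for Itgb2 (SE 0.34, limma adjusted p = 0.237). The other genes had limma adjusted p values between 0.287 and 0.901 in the first of these comparisons and between 0.183 and 0.601 in the second.

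Between the combined treatment and IL-3/GM-CSF the limma adjusted p was 1 for all 9 genes. The differences were 0.62 for Itgam, 0.55 for Itgax and -0.48 for Itgb2, and that of Itgam was -1.04 by A_55_P1977929 and -0.10 by A_55_P1977926. With slide as an added block, the difference between the combined treatment and EPO came from the only pair of their arrays on a shared slide, 1 day 6 array each, and is not read as a test. Against the 1 untreated array limma called 0 of the 9 genes and 0 of all genes under any treatment, with 1493, 961 and 677 of all genes at an unadjusted p under 0.05 for EPO, IL-3/GM-CSF and combined cultures. The lowest adjusted p of an integrin gene there was 0.461.

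Day 6 cells were compared array by array, where a gene counted if it was at least 2-fold apart with its higher array well above background. Combined day 6 cells were above EPO day 6 cells for Itgam, Itgax, Itgal, Itgb2, Itga6 and Itgb7 and below them for Itgb1. Thus 6 of 9 genes were higher and 1 lower, against 16.8% and 13.1% of all genes. Between EPO and IL-3/GM-CSF at day 6, 2 genes were higher with EPO, Itga4 by 2.29-fold and Itgb1 by 3.22-fold, against 16.3% of all genes. Lower with EPO were 5 genes, against 17.1% of all genes: Itgax by at least 47.4-fold, Itgal by 6.89-fold, Itgb2 by 3.87-fold, Itga6 by 2.31-fold and Itgam, by 4.03-fold with its brightest probe, by at least 67.1-fold with A_55_P1977929 and by 3.40-fold with A_55_P1977926. Between the combined treatment and IL-3/GM-CSF, Itgax (2.40-fold) and Itga4 (2.16-fold) were higher and 0 genes were lower, against 4.51% and 2.88% of all genes. These pairs share arrays and are not independent of each other.

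Relative to untreated cells, EPO day 6 cells had 1 integrin gene higher, Itgb1 (11.6% of all genes), and 3 lower, Itgax, Itgal and Itga6 (14.9%). IL-3/GM-CSF day 6 cells had 3 higher (Itgam, Itgax and Itgb2, 9.90% of all genes) and 1 lower, Itga4 by 2.01-fold (9.60%). Combined day 6 cells had 3 higher (Itgax, Itgb2 and Itgb7, 8.42%) and 0 lower (6.31%). At day 3, EPO Sca1-high cells had 0 of 9 genes at least 2-fold higher (3.64% of all genes) and 0 lower (1.86%). The Sca1-high fractions of IL-3/GM-CSF and of the combined treatment each had 4 higher, namely Itgam, Itgax, Itgb2 and Itgb7, against 9.73% and 8.70% of all genes, and 0 lower (6.44% and 6.50%). The Sca1-low fractions had 5 lower with EPO (17.8% of all genes), 3 with IL-3/GM-CSF (10.6%) and 3 in combined cultures (11.8%), with Itgax, Itgal and Itga6 among them each time and, with EPO, Itga4 and the brightest Itgam probe (0.09 by A_55_P1977929). Higher in Sca1-low cells were 0 genes with EPO (18.5%), 0 with IL-3/GM-CSF (7.89%) and 2 in combined cultures (10.2%), Itgb1 and, by its brightest probe, Itgam (-0.71 by A_55_P1977929). By A_55_P1977929 Itgam was also above untreated cells in IL-3/GM-CSF Sca1-low cells (2.57-fold) and combined day 6 cells (26.6-fold). There the brightest probe gave 0.41 and 0.45, and A_55_P1977926 gave -0.26 and 0.97. The untreated array is shared by all these counts.

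**Figure D4:**
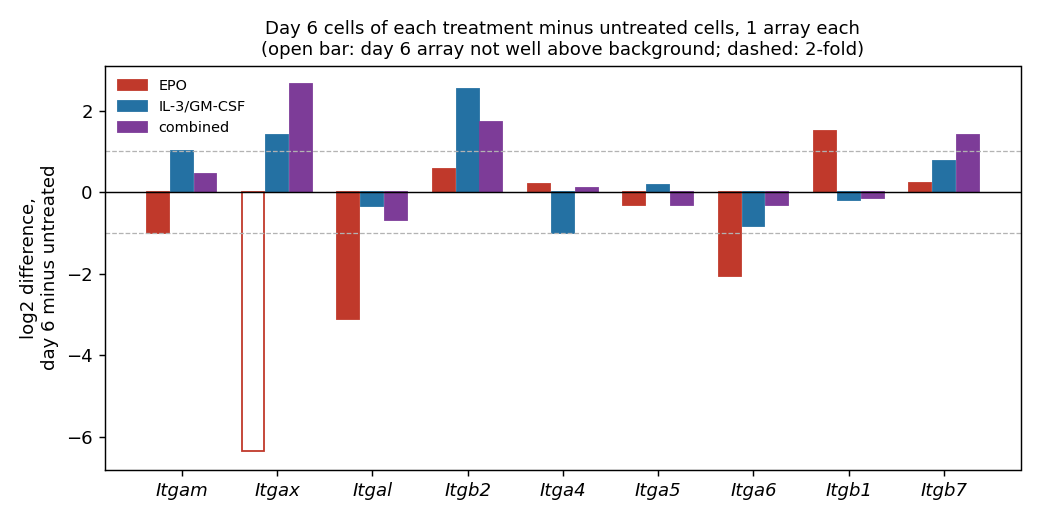
Difference between day 6 cells of each treatment and untreated cells (log2, day 6 minus untreated) for the 9 genes, 1 array each and without replicates. Bars are single differences, the dashed lines mark 2-fold, and the open bar of Itgax with EPO (-6.35) has a day 6 value not well above background, while IL-3/GM-CSF and combined cells reach 2.52 and 1.71 for Itgb2.

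Marker levels at day 6 differed as well. The summed signal of the erythroid markers was 10.21 with EPO, 2.17 with IL-3/GM-CSF and 5.15 in combined cultures, against 5.65 in untreated cells, with 4 of 9 well above background with IL-3/GM-CSF, where Alas2 and Slc4a1 were not. That of the neutrophil markers was 3.71, 11.19 and 10.82 in the same order, against 8.28 in untreated cells, where it was nearly all Mpo (8.24). Their mean level was -2.32, 7.25 and 6.63, against -1.91 in untreated cells. S100a8 and S100a9 were not well above background with EPO or in untreated cells. The monocyte and macrophage markers had 2.04, 6.23 and 5.39, against 2.40 in untreated cells, with 1 of 7 well above background with EPO. The part of these cell types in the integrin levels was not tested.

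The changes of the integrins were set beside 96 other genes of integrin biology, of which 78 were tested. In the fit of the day 3 fractions Sca1-low cells had 3 of the 78 called higher and 16 called lower, where 4.09% of all genes were called higher and 6.99% lower. The median difference was -0.37, against 0.17 for all genes. The list, like the integrins, was written with earlier results of these data known.

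Among the other integrin subunits, Itgb5, which pairs with alpha V, was lower in Sca1-low cells, with a difference of -4.51 (SE 0.23, limma adjusted p = 0.00401). Itgad, the remaining beta 2 alpha subunit, was not well above background in any Sca1-low cells and was at least 5.90-fold lower there, a difference that was called as measured (limma adjusted p = 0.0223) and not at the floor (limma adjusted p = 0.0899). Itgav, alpha V itself, was lower, with a difference of -1.42 (limma adjusted p = 0.0205). Itga7, a laminin receptor subunit, was not well above background in any Sca1-high cells and was at least 3.34-fold higher in Sca1-low cells (limma adjusted p = 0.00959 at the floor). Of 7 other alpha subunits 1 was called higher and 2 lower, and of 4 other beta subunits 1 was called lower, against 4.09% higher and 6.99% lower among all genes.

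Among 13 ligands and counter-receptors, 2 were called higher and 2 lower, against 4.09% and 6.99% of all genes. Icam4, a red cell adhesion molecule that binds integrins, was higher in Sca1-low cells by 3.00 (SE 0.22, limma adjusted p = 0.00604), and Fga, a fibrinogen chain, by 1.24 (limma adjusted p = 0.0403). Jam3, a junctional molecule bound by alpha M beta 2, was not well above background in any Sca1-low cells and was at least 6.32-fold lower there (limma adjusted p = 0.00619 at the floor). Icam1, the main LFA-1 ligand, differed by -1.71 (limma adjusted p = 0.0163).

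Of 21 genes of activation from inside the cell, 4 were called lower and 0 higher, against 6.99% and 4.09% of all genes. They were Cytip and Cyth1, which encode a cytohesin-binding protein and a cytohesin (-3.39 and -1.22), Rasgrp2, the activator of Rap1 in platelets and leukocytes (-2.95), and Flna, filamin A, which binds beta tails (-1.53). Talin and kindlin, the direct activators, were not called, with -0.50 for Tln1 (limma adjusted p = 0.212) and 0.17 for Fermt3 (limma adjusted p = 0.595). Of 21 genes of signalling from the bound integrin, 6 were called lower and 0 higher, against the same shares of all genes. They were the adaptors Tyrobp (-3.36), Fcer1g (-2.51) and Lcp2 (-1.33), the kinase gene Syk (-2.01), and Nedd9 (-2.22) and Zyx (-2.12), whose products sit at adhesion sites. Of 12 other adhesion and homing genes, Pecam1 was called lower (-1.71, limma adjusted p = 0.0138).

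The genes whose levels followed each integrin most closely over the 10 arrays were found among 5601 genes (5602 for Itga5), and these correlations are descriptions, since arrays share treatments and slides. Itgax was followed by Slfn8 (r = 0.996), Dhrs3 (r = 0.992) and Igdcc4 (r = 0.991). Itgb2 was followed by the glucose transporter gene Slc2a3 (r = 0.986), the neutrophil protease gene Prtn3 (r = 0.971) and Rgcc (r = 0.963). Itgb7 was followed by Ninj1 (r = 0.945), an adhesion molecule gene, Foxs1 (r = 0.919) and Slc43a2 (r = 0.909). Itgb1 was followed by Orc2 (r = 0.991), Usp45 and Mdc1 (r = 0.986 each), and Itgal by Iqce (r = 0.991), Parp3 (r = 0.989) and Grap (r = 0.988).

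For Itga6 they were Zfp260 (r = 0.986), Spin1 (r = 0.983) and Fbxo11 (r = 0.982), for Itga4 Slc12a2, Ankrd61 (r = 0.929 each) and Asf1a (r = 0.916), and for Itga5 Anxa2 (r = 0.877), Lrrc27 (r = 0.875) and Olfr1043 (r = 0.863). For the brightest Itgam probe they were Fgf23 (r = 0.992), Idua and Snap25 (r = 0.991 each). Their levels also lay close to those of the probe itself. In Sca1-low cells of EPO, IL-3/GM-CSF and combined cultures the probe was at 3.58, 5.16 and 6.94. There Fgf23 was at 3.28, 5.06 and 6.89 and Idua at 3.43, 5.19 and 7.03. Whether this probe reports Itgam RNA was not tested. Among the integrins themselves, Itgal and Itgb1 ran in opposite directions over the 10 arrays (r = -0.925), as did Itga4 and Itga5 (r = -0.883). Itgax followed Itga6 (r = 0.866) and Itgal (r = 0.837), while with its own beta partner Itgb2 it had r = 0.525. By rank (Spearman) these correlations were 0.77, 0.697 and 0.564. All r values of Itgax, also those with Slfn8, Dhrs3 and Igdcc4, use its level as measured. That includes the EPO Sca1-low and EPO day 6 values, which were not well above background.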

How the data were processed

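Spot intensities were deposited as the output of Agilent Feature Extraction 11.0.1.1, per the submitters' processing notes. Per the file headers the processed intensity is background-subtracted, and the deposited series matrix held the same intensities, with a largest relative difference of 0 from the array files. Its column medians were 17.0 to 36.9 intensity units, so it is on a linear scale and not centred. RNA was labelled with Cy3, per the labels' protocols. These are 1-colour arrays of 62976 spots. With 1 array per condition no replicate spread can be stated, and slide, scaling and choice of probe limit the values as well.

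A level is log2 of the processed signal minus the array's 75th percentile over non-control spots. Spots flagged as outliers or non-uniform were left out, repeat spots were averaged and the brightest probe stood for a gene. Probes were named through RefSeq accessions: 27235 of 55681 had a symbol, 28446 had none and were not tested, and 98.1% of those with a transcript accession matched. No probe was saturated. A gene was kept if 2 or more of the 10 arrays read it well above background, which left 14213. Tests used limma 3.58.1 (R 4.3.3) with Benjamini-Hochberg adjustment over all genes and a threshold of 0.05, and were tried on simulated data. The fractions were fitted on 6 arrays with treatment as a block, the treatments on 9 arrays with population as a block, and treatments minus untreated on all 10. Single arrays were compared at a 2-fold limit without a test. Where the dimmer array was not well above background, the fold is a lower bound against the higher of the gene's own value and the lowest level well above background on that array.

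The integrins, the gene lists and the choice of the 6-array fit were made with earlier results of these data known. All 9 integrins were named, the pathway genes called between fractions or with the largest differences of their group, and the 3 genes with the highest Pearson correlation to each integrin, among genes with an SD of at least 0.5 that 5 or more arrays read well above background. Tln1, Fermt3 and the correlations between integrins were named after their values were seen. The files hold median and no mean spot signals, so normexp (offset 50) used median spot and median local background signals. Probe replacements for Itgam, Itgal, Itga4 and Itgb1, and a fit with values not well above background raised to the lowest level well above background on their array (the floor), were added as alternatives after seeing the data.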

Additional observations from a re-analysis of the deposited data

Results flagged for a closer look

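2 genes moved at least 2-fold in opposite directions from untreated cells in the same population under different treatments. The difference between these effects was not tested, and the pairs share the untreated array. Itgax at day 6 differed from untreated cells by -6.35 with EPO, where it was not well above background (-4.18 at the floor, the lowest level well above background on that array), by 1.39 with IL-3/GM-CSF and by 2.65 in combined cultures. Itgam in Sca1-low cells differed from untreated cells by -1.17 with EPO and by 2.19 in combined cultures, by its brightest probe. Probe A_55_P1977929 gave 0.09 and -0.71 for these Itgam differences, so their opposite directions rest on the brightest probe.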

How the results depend on the processing

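No paired analysis was possible because of the labels: every array carries the same replicate number, so the numbers pair no arrays. The fit of the fractions is paired by treatment, which is its block. Of the integrins, 3 were called between day 3 fractions, but 0 with all 10 arrays in the model, and between 0 (without the IL-3/GM-CSF pair) and 4 (without the EPO pair) when a pair was left out. The count of all genes called was 1574, against 1025 without a filter, 2422 with genes well above background on all 10 arrays, 0 with all 10 arrays in the model, 0 without the IL-3/GM-CSF pair and 472 without the combined pair. Itgb1 was not called without the filter (limma adjusted p = 0.0571). Itga6 (limma adjusted p = 0.0173) and Itgb7 (limma adjusted p = 0.0496) passed with the filter on all 10 arrays. The Itga4 difference of 0.44 was -0.13 without the IL-3/GM-CSF pair and 0.98 without the EPO pair. With slide as an added block, 2 integrins were called between the combined treatment and EPO and 2 between EPO and untreated cells, Itgax and Itgal each time, with 864 and 1042 of all genes called. These counts are not read as results: the combined minus EPO values (9.0 and 2.45) are those of the 1 day 6 pair that shares a slide, untreated is 1 array, and Itgax was not well above background in EPO day 6 cells. With that block Itgb2 in combined cultures minus IL-3/GM-CSF was 0.30 in place of -0.48. With values not well above background at the floor, chosen after seeing the data, the pathway calls were 3 higher and 20 lower, in place of 3 and 16, with 1010 and 1097 of all genes. The cause of these changes was not tested.

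The choice of probe turned the sign of Itgam. In combined cultures minus IL-3/GM-CSF its difference was -0.17 by the mean of all probes, -1.04 by the next brightest probe and -0.10 by the dimmest, and in combined day 6 minus combined Sca1-high cells it was 0.46, 1.49 and 1.10. By the next brightest probe, EPO Sca1-low minus EPO Sca1-high was 0.04, EPO Sca1-low minus untreated 0.09 and combined Sca1-low minus untreated -0.71, and by the dimmest combined Sca1-high minus untreated was -0.13.

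Over all 9 genes and all alternatives, the sign differed from the main value in 1 of 125 fitted values between fractions, in 24 of 375 between treatments and in 19 of 510 against untreated cells. The largest main difference among these was 0.96, but some of the values moved far. With slide as an added block, Itgax minus untreated went from 0.41 to -7.33 for IL-3/GM-CSF and from 0.96 to -1.85 for combined cultures. Only Itgam, Itgax and Itgb2 are given singly for treatments, a choice made after their values were seen.

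Counts of integrins at least 2-fold apart changed by more than 1.5 times as follows. With normexp and quantile normalization, combined Sca1-low cells had 1 higher than untreated, EPO day 6 had 1 higher than IL-3/GM-CSF day 6 (also 1 with quantile normalization alone), and IL-3/GM-CSF day 6 had 2 lower than untreated. With the filter on all 10 arrays, which leaves out Itgax, combined day 6 had 1 higher than IL-3/GM-CSF day 6, and day 6 had 1 lower than Sca1-high cells with IL-3/GM-CSF and 1 in combined cultures. With the mean of all probes, 0 were higher in combined Sca1-low and 0 lower in IL-3/GM-CSF day 6 than in untreated cells, EPO day 6 had 1 higher than IL-3/GM-CSF day 6, EPO Sca1-low had 1 higher than Sca1-high cells, and day 6 had 1 higher (IL-3/GM-CSF) and 1 lower (combined) than Sca1-high cells. With the next brightest probes, 3 were lower in EPO Sca1-low, 0 lower in IL-3/GM-CSF day 6, 1 higher in IL-3/GM-CSF Sca1-low and 0 higher in combined Sca1-low than in untreated cells. These probes also gave 1 higher in EPO Sca1-low than Sca1-high cells, 1 higher at day 6 than in Sca1-high cells with IL-3/GM-CSF, 1 higher and 1 lower in combined cultures, and 1 higher in EPO and 1 in combined day 6 than in IL-3/GM-CSF day 6 cells. With the dimmest Itgam probe, combined Sca1-low had 1 higher than untreated, and day 6 had 1 higher (IL-3/GM-CSF), and 1 higher and 1 lower (combined), than Sca1-high cells. A change of 0.3 was taken as a move of a single difference, a stated choice, since no replicate spread exists.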
